A study of Homo sapiens with 10 samples.

Results

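The 41 autophagy and lysosome genes described here were a list of named genes of this pathway, and each was found by its name among the 30484 gene names of the array. One probe stood for each gene, the one with the highest mean signal over the arrays. Of the 41 genes, 40 passed the filter on dim probes and were tested among 20953 genes, and these 40 were well above background on all 10 arrays. The remaining gene, HEXA, which encodes a subunit of the hexosaminidase that degrades gangliosides, was well above background on 1 of 10 arrays and was not tested. On the scale used throughout, log2 of the signal over the 75th percentile of the same array, it lay between -7.22 and -4.92.

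The mRNA came from PC-3, an established line of human prostate cancer cells, and was hybridized to 10 single-color oligonucleotide arrays. Of the 5 groups of 2 biological replicates, untreated cells were taken at 0 h and the others after 24 h with DMSO, the solvent of the drugs, with 60 µM luteolin, with 60 µM gefitinib or with both drugs at these concentrations. Luteolin is a plant flavonoid that inhibits several kinases, and gefitinib is an inhibitor of the EGF receptor kinase. The comparisons asked which transcripts differed from the solvent control with each drug, and whether the drugs together changed them by more or less than the sum of their single changes.

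Autophagy encloses cytoplasm in a double membrane and delivers it to the lysosome. Kinase and lipid signals start the membrane, a pair of ubiquitin-like conjugation systems attaches LC3 and GABARAP proteins to it, and adaptors such as SQSTM1 bring in the cargo. In the lysosome, an ATP-driven proton pump acidifies the lumen, where cathepsins and other hydrolases work, and the MiT transcription factors (TFEB, TFE3 and MITF) bind E-box sequences in the promoters of many genes of this pathway.

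The E-box letters were therefore looked for in the promoters, defined as the window from 250 bases before to 50 after the transcription start in RefSeq (GRCh38.p14). A promoter was given for 30 of the 41 genes and was not given for MAP1LC3A, UVRAG, LAMP2, CTSB, HEXA, ASAH1, ATP6V1A, ATP6V1B2, ATP6V1C1, ATP6V1H and PSAP. The letters CACGTG, which read the same on both strands, stood in the promoters of 7 of these 30 genes and in 7.26% of the 35116 promoters of the table, or those of 8.77% of its 27305 genes. The longer form TCACGTGA, of which CACGTG is the core, stood in 5 of the 30 and in 0.98% of all promoters (1.18% of genes). The form GTCACGTGAC, the palindrome known as the CLEAR element, stood in MCOLN1 alone among the 30 and in 0.353% of all promoters (0.421% of genes). Of the genes called in at least 1 drug-labelled group against DMSO, 15 had a promoter in the table and 5 of them held CACGTG, whereas 2 of the 15 tested genes that were not called held it (CTSA and ATP6V0D1). The 5 promoters of called genes that held it are shown because their transcripts behaved differently from each other on the arrays, as described below for each gene. They are printed from 5′ to 3′ on the strand of the gene, with each CACGTG in capitals, for MCOLN1 (chr19:7522374-7522673, plus strand, 2 sites), NEU1 (chr6:31862772-31863071, minus strand, 1 site), CTSD (chr11:1763878-1764177, minus strand, 1 site), LAMP1 (chr13:113296989-113297288, plus strand, 6 sites) and ATG3 (chr3:112561913-112562212, minus strand, 2 sites).
MCOLN1: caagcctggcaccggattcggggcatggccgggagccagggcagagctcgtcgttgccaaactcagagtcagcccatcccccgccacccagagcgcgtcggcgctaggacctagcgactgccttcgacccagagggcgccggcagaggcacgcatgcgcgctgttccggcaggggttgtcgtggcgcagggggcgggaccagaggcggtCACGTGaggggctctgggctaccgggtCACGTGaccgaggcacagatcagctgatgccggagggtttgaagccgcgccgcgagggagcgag
NEU1: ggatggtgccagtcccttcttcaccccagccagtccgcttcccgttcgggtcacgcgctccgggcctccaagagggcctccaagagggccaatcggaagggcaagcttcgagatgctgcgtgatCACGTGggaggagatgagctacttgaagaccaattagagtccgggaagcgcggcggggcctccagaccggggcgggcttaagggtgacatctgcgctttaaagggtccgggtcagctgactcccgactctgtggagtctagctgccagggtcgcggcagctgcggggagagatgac
CTSD: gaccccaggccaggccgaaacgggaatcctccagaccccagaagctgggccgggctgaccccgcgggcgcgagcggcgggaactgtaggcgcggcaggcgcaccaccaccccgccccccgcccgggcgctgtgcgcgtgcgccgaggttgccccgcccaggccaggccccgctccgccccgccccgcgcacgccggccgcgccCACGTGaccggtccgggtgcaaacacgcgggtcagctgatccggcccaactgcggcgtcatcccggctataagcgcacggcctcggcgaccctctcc
LAMP1: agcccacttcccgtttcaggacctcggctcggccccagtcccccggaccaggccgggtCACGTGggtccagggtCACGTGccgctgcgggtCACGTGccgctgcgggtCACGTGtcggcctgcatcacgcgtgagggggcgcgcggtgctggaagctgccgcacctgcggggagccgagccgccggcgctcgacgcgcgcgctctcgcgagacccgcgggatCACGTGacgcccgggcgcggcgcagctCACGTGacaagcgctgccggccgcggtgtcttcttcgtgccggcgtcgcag
ATG3: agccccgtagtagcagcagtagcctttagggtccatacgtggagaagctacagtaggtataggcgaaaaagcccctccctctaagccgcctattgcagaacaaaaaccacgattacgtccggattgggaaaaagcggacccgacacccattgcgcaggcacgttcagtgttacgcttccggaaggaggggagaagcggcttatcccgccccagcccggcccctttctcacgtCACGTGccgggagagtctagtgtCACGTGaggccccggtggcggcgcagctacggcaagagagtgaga
The sites nearest to the start began 14 bases before it in MCOLN1, 126 in NEU1, 47 in CTSD and 1 in LAMP1, and in ATG3 one began 18 bases before the start and the other 5 bases after it. A match of letters describes the sequence and does not show that a factor was bound there.

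The sample labels and the file names named different treatments for the 6 drug-treated arrays. Where the label was luteolin the file name gave gefitinib, where it was gefitinib the file name gave both drugs, and where it was both drugs the file name gave luteolin. Arrays are named here by their labels, so a value given for 1 label would belong to the other treatment if the file names were right. The 75th percentile of the signal was lower on the arrays labelled gefitinib (628 to 651) and luteolin plus gefitinib (539.8 and 865) than on the DMSO arrays (1283 and 1350). Epithelial keratins and EPCAM (4 of 4 markers) were well above background on all arrays, the luminal prostate marker FOLH1 on 0, and of 8 markers of fibroblasts, immune cells and endothelium 3 were well above background on all arrays, at a log2 signal of at most -2.01, and DCN and PTPRC on 0. The arrays report neither the number of cells nor the RNA per cell, and the cause of the lower percentile was not tested.

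Against DMSO, 10 of the 40 genes rose and 0 fell with the luteolin label, 10 rose and 1 fell with the gefitinib label, and 6 rose and 2 fell with the label of both drugs. A gene was called when its adjusted p was under 0.05 (limma, Benjamini-Hochberg over all probes kept) and its change was at least 2-fold. Among all genes tested, 7.04% rose and 6.13% fell with the luteolin label, 16.6% rose and 14.1% fell with the gefitinib label, and 12.1% rose and 7.45% fell with the label of both drugs. The median log2 change of the 40 genes was 0.42, 0.61 and 0.48 in these comparisons, beside 0.08, 0.24 and 0.19 for all genes tested. In the comparison with the luteolin label, the share of the list that rose was above that of all genes by the widest margin, and in the comparison with both drugs the margin was narrow. The list, like the further lists given below, was chosen with earlier results of these data known. Margins over all genes, here and below, therefore describe the lists and are not a test.

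**Figure D1:**
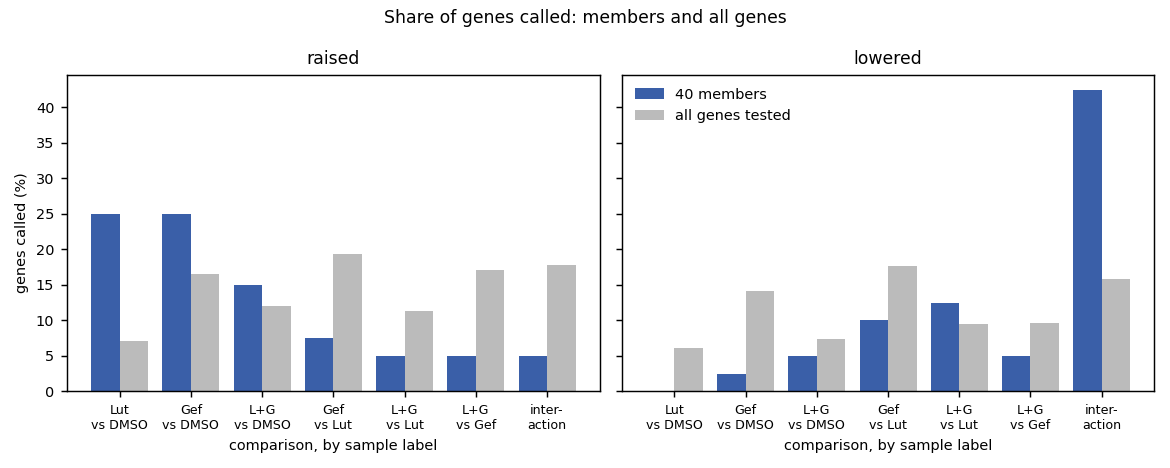
Percentage of genes called as raised (left) or lowered (right) in each comparison by sample label, for the 40 genes of the list (blue bars) and all 20953 genes tested (grey bars). With the luteolin label 10 of the 40 genes rose and 0 fell, and in the interaction of the drugs 17 of the 40 were lowered and 2 raised.

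The counts with the gefitinib label changed with the scaling, and those with both drugs changed with single arrays. The counts with luteolin and with gefitinib also shifted when single arrays were left out. After quantile normalization the number called was 12 with the luteolin label, 2 with the gefitinib label (MAP1LC3A and WIPI1) and 6 with both drugs, and the list's median log2 change was 0.41, 0.31 and 0.14. The count with both drugs was 17 without the first array of that label and 4 without the second, 5 without the first DMSO array and 8 with all arrays. On each slide that held a DMSO array and an array of the drug label, every called gene differed from DMSO in the direction of its call. These differences are parts of the changes that were called, so their direction adds no separate support. The second array labelled gefitinib shared no slide with a DMSO array.

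**Figure D2:**
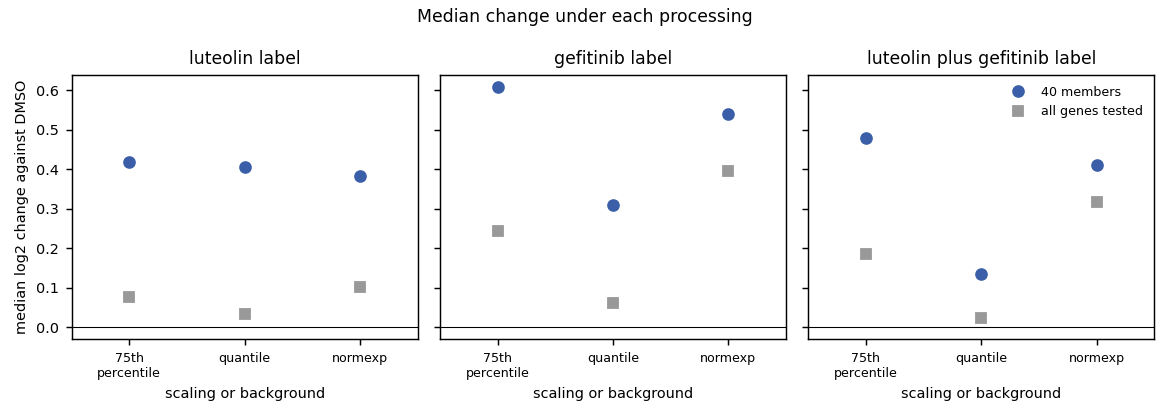
Median log2 change against DMSO (vertical axis) of the 40 genes (circles) and of all genes tested (squares) under 3 ways of processing, in 1 panel per sample label. Under quantile normalization the medians of the list were 0.41, 0.31 and 0.14, and those of all genes 0.03, 0.06 and 0.02.

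The 3 comparisons share the DMSO arrays. In all, 21 genes were called in at least 1 of the drug-labelled groups and 19 in none. The matching share of all genes tested was not counted, so this number has no background beside it. SQSTM1 was the only one called as raised against DMSO with every label. The calls of the others differed by label, although a call with 1 label and not with another does not show a difference, and the direct comparisons of the labels are given further on. Over the 40 genes, replicate arrays differed by a median SD of 0.0637 for DMSO, 0.0836 for luteolin, 0.126 for gefitinib and 0.274 for both drugs. Over all genes tested these were 0.0897, 0.136, 0.185 and 0.26. The SE of a gene comes from a spread shared by all 5 groups and is the same for each label against DMSO. It may therefore understate the spread with both drugs.

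**Figure D3:**
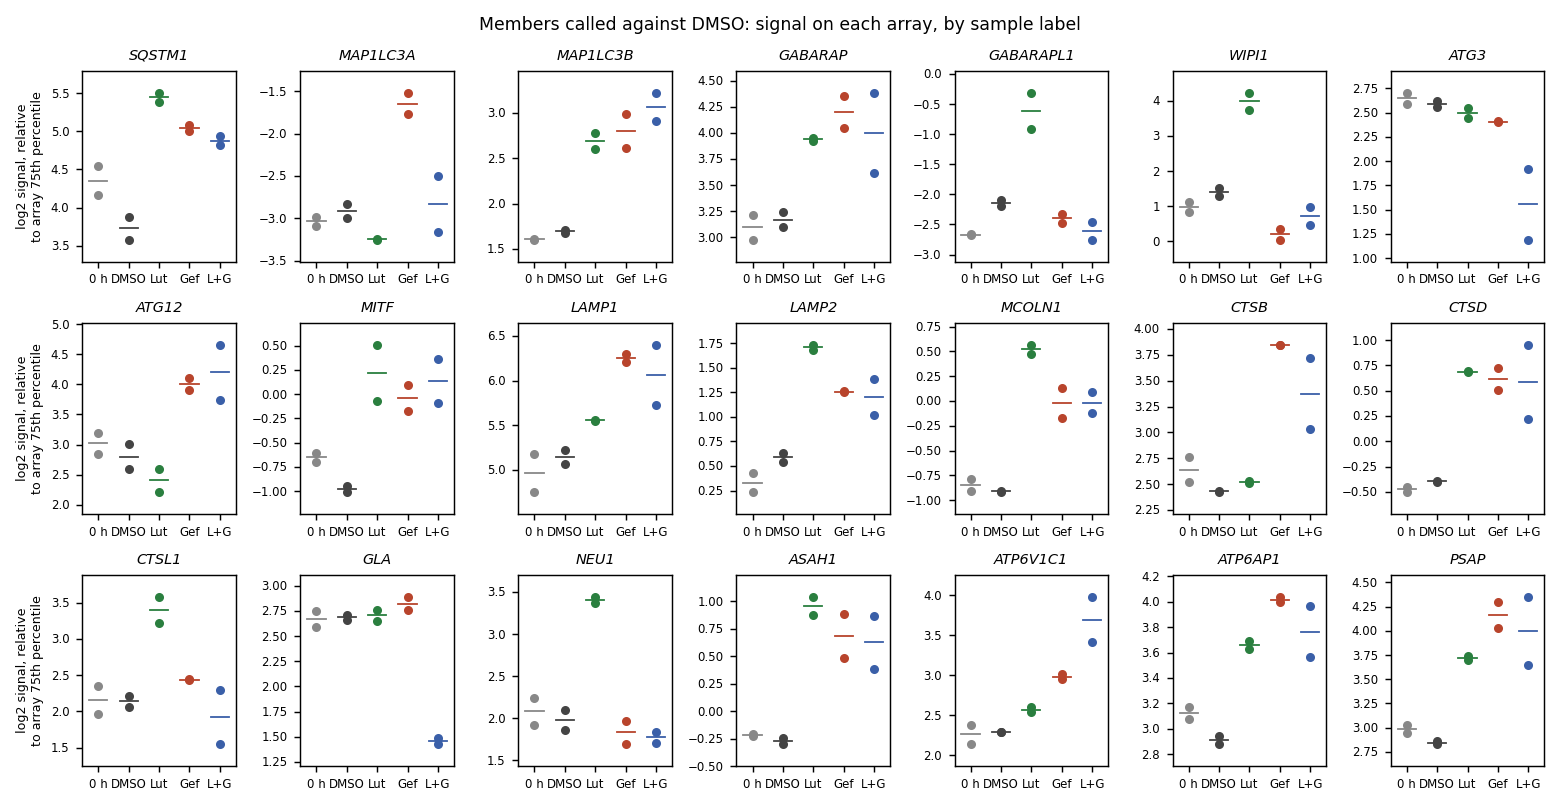
Log2 signal on each array, relative to the array's 75th percentile (vertical axis, scaled separately for each gene), of the 21 genes called against DMSO, with 1 point per array and a line at the mean of the 2 arrays of each label (0 h, DMSO, luteolin, gefitinib, both drugs). SQSTM1 lay above DMSO on all 6 drug-labelled arrays, WIPI1 lay above it with the luteolin label and below it with the other drug labels, and GLA lay apart with both drugs.

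Among the adaptor and the LC3 family, 5 of 6 transcripts were called with at least 1 label. SQSTM1, the ubiquitin-binding cargo adaptor also known as p62 (probe at chr5:179196315-179196374, hg18), had a log2 signal of 4.16 and 4.55 at 0 h, 3.58 and 3.88 with DMSO, 5.38 and 5.51 with luteolin, 5.00 and 5.09 with gefitinib and 4.82 and 4.94 with both drugs. All 6 drug-labelled arrays lay above all 4 control arrays. It rose by 1.72 ± 0.19 (SE, adjusted p = 0.000963) with luteolin, 1.31 ± 0.19 (adjusted p = 0.00121) with gefitinib and 1.15 ± 0.19 (adjusted p = 0.00337) with both drugs. Under quantile normalization the changes with gefitinib and with both drugs were 0.65 and 0.77 and were not called. Against 0 h, SQSTM1 was called with luteolin (1.09), whereas its changes of 0.69 with gefitinib and 0.52 with both drugs were not called. DMSO differed from 0 h by -0.63 for this gene, which was not called either.

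The LC3 transcripts differed in which label raised them. MAP1LC3B, the LC3 form most used as an autophagosome marker (chr16:85995467-85995526), had a log2 signal of 1.60 and 1.61 at 0 h, 1.67 and 1.71 with DMSO, 2.61 and 2.78 with luteolin, 2.98 and 2.62 with gefitinib and 2.91 and 3.22 with both drugs. The drug-labelled arrays again lay above the controls without overlap. MAP1LC3B rose by 1.11 ± 0.19 with gefitinib (adjusted p = 0.00232) and by 1.37 ± 0.19 with both drugs (adjusted p = 0.00185), and with luteolin its change of 0.9992 (adjusted p = 0.00671) was just under the minimum of 1. The call with gefitinib was lost under quantile normalization (0.77), with the median over probes (0.90) and without the first array of that label (0.92), and that with both drugs with the median over probes (0.91). Of its 3 probes, all annotated to the same transcript, the third passed with luteolin at 1.01.
MAP1LC3A, a closely related form (chr20:32611316-32611375), had a log2 signal of -3.09 and -2.98 at 0 h, -2.99 and -2.83 with DMSO, -3.25 and -3.25 with luteolin, -1.52 and -1.77 with gefitinib and -3.16 and -2.50 with both drugs. Only the arrays labelled gefitinib stood above all others. The change was 1.27 ± 0.22 with gefitinib (adjusted p = 0.00285), and it was called as well against luteolin (1.60 ± 0.22) and against both drugs, from which it differed by 1.18.

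The GABARAP transcripts, of the second branch of the same protein family, also split. GABARAP (chr17:7084916-7085397) had a log2 signal of 2.98 and 3.21 at 0 h, 3.099 and 3.238 with DMSO, 3.95 and 3.92 with luteolin, 4.35 and 4.05 with gefitinib and 3.61 and 4.39 with both drugs. Every drug-labelled array was above the controls, and the rise was called with gefitinib alone (1.03 ± 0.25, adjusted p = 0.0101), a call that was lost under quantile normalization (0.46), normexp background correction (0.98) and without the first DMSO array (0.96) or the first array of that label (0.88). GABARAPL1 (chr12:10266325-10266384) had a log2 signal of -2.68 and -2.67 at 0 h, -2.19 and -2.09 with DMSO, -0.92 and -0.31 with luteolin, -2.47 and -2.33 with gefitinib and -2.46 and -2.75 with both drugs. Both arrays labelled luteolin stood above the other 8, by 1.53 ± 0.22 against DMSO (adjusted p = 0.00227). The nearly identical GABARAPL3, which is not on the list, changed alike with luteolin (1.93 ± 0.18, adjusted p = 0.000617), so that probes of the pair may share target RNA and the source of the signal is uncertain. GABARAPL2 was not called, with changes of 0.17, 0.83 and 0.72.

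Of the 5 genes of initiation and phosphatidylinositol 3-phosphate binding, WIPI1 was the only one called against DMSO, and in opposite directions. WIPI1, which binds this lipid on the forming membrane (chr17:63929049-63929108), had a log2 signal of 0.83 and 1.11 at 0 h, 1.30 and 1.52 with DMSO, 3.73 and 4.23 with luteolin, 0.05 and 0.35 with gefitinib and 0.97 and 0.45 with both drugs. The arrays labelled luteolin were far above the rest and those labelled gefitinib were below every control array. The transcript rose by 2.57 ± 0.25 with luteolin (adjusted p = 0.000645) and fell by 1.21 ± 0.25 with gefitinib (adjusted p = 0.00500), and with both drugs the difference of -0.70 did not pass (adjusted p = 0.0524). The rise with luteolin was the largest change of any gene of the list against DMSO, and both calls held under quantile normalization. By the file names, the rise belongs to gefitinib and the fall to both drugs.
ULK1, the kinase that starts autophagy, was at 4.42 and 4.70 with luteolin against 3.63 and 3.61 with DMSO, a change of 0.94 that missed the minimum fold, and it was lower with gefitinib than with luteolin by 1.29 (adjusted p = 0.000635). BECN1, a subunit of the lipid kinase complex, UVRAG, its partner, and WIPI2 differed from DMSO by -0.23 to 0.61 and were not called.

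The conjugation enzymes were called less uniformly. ATG12, the ubiquitin-like protein that is joined to ATG5 (chr5:115195272-115195331), had a log2 signal of 2.85 and 3.19 at 0 h, 2.59 and 3.01 with DMSO, 2.22 and 2.60 with luteolin, 3.90 and 4.10 with gefitinib and 3.74 and 4.66 with both drugs. The arrays that carried a gefitinib label, alone or with luteolin, were above all controls, and those labelled luteolin overlapped the DMSO arrays. ATG12 rose by 1.20 ± 0.31 with gefitinib (adjusted p = 0.0126) and by 1.40 ± 0.31 with both drugs (adjusted p = 0.0104), and it was 1.60 ± 0.31 higher with gefitinib than with luteolin. The call with gefitinib was lost under quantile normalization (0.67) and without the second array of that label (1.10) or the first DMSO array (0.99), and that with both drugs was lost without the second array of that label (0.94) or the first DMSO array (1.19).
ATG3, the enzyme that transfers LC3 to its lipid (chr3:113738046-113738105), had a log2 signal of 2.70 and 2.59 at 0 h, 2.62 and 2.56 with DMSO, 2.54 and 2.44 with luteolin, 2.40 and 2.41 with gefitinib and 1.92 and 1.19 with both drugs. Both arrays with both drugs were below all others, but they were far apart from each other. ATG3 fell by 1.04 ± 0.23 with both drugs (adjusted p = 0.00974), a call that was lost without either DMSO array (-1.01 and -1.07) or without the second array of the label (-0.67). A second probe of ATG3, for another cDNA, differed by 0.10 there (adjusted p = 0.687), so that the fall was seen with 1 of 2 probes. This is the gene whose promoter held CACGTG on each side of the start. ATG5, ATG7 and ATG16L1, all of the conjugation machinery, were not called against DMSO, with changes of -0.78 to 0.42.

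Of the MiT transcription factors, MITF was called and TFEB and TFE3 were not. MITF (chr3:70097106-70097165) had a log2 signal of -0.60 and -0.70 at 0 h, -1.01 and -0.95 with DMSO, -0.07 and 0.51 with luteolin, 0.09 and -0.17 with gefitinib and -0.09 and 0.37 with both drugs. All drug-labelled arrays lay above the 4 controls. The rise was 1.20 ± 0.24 with luteolin (adjusted p = 0.00858) and 1.12 ± 0.24 with both drugs (adjusted p = 0.00862), and with gefitinib it was 0.94 (adjusted p = 0.0112). Each of these calls was lost without the second array of its label (0.91 and 0.89) and without either DMSO array, where the change was 1.17 and 1.23 with luteolin and 1.09 and 1.15 with both drugs. With the median over its probes, MITF differed by 0.67 and 0.56 and was not called. TFEB, the factor most closely tied to lysosomal genes, differed from DMSO by 0.31, -0.36 and 0.17. TFE3 differed by 0.36, 0.78 and 0.11, with the arrays labelled gefitinib (-0.10 and 0.03) above the other 8.

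Among lysosomal membrane proteins, MCOLN1 and LAMP2 rose with luteolin and LAMP1 with gefitinib. MCOLN1, the lysosomal calcium channel whose promoter held the CLEAR palindrome (chr19:7499764-7499823), had a log2 signal of -0.91 and -0.79 at 0 h, -0.92 and -0.91 with DMSO, 0.47 and 0.56 with luteolin, 0.13 and -0.18 with gefitinib and -0.12 and 0.09 with both drugs. The drug-labelled arrays lay above the controls, with those labelled luteolin on top. The rise with luteolin was 1.43 ± 0.17 (adjusted p = 0.00119), and the changes of 0.89 with gefitinib and 0.89 with both drugs were below the minimum fold.
LAMP2, a main protein of the lysosomal membrane (chrX:119448995-119449054), had a log2 signal of 0.24 and 0.43 at 0 h, 0.54 and 0.64 with DMSO, 1.74 and 1.68 with luteolin, 1.25 and 1.27 with gefitinib and 1.01 and 1.39 with both drugs. No drug-labelled array overlapped the controls, and LAMP2 rose by 1.12 ± 0.17 with luteolin (adjusted p = 0.00316). A second probe, annotated to another LAMP2 transcript that differs by alternative splicing, gave -0.07 with luteolin (adjusted p = 0.834), 0.53 with gefitinib and -0.07 with both drugs. The rise was therefore measured for 1 of the 2 annotated transcripts, and the difference between the probes was not tested. With the median over probes, LAMP2 differed by 0.52 with luteolin and was not called.
LAMP1, the companion of LAMP2 (chr13:113025668-113025727), had a log2 signal of 4.75 and 5.17 at 0 h, 5.06 and 5.23 with DMSO, 5.55 and 5.56 with luteolin, 6.30 and 6.21 with gefitinib and 5.72 and 6.40 with both drugs. It was higher on all drug-labelled arrays than on the controls and rose by 1.11 ± 0.24 with gefitinib (adjusted p = 0.00632), a call that was lost under quantile normalization (0.29) and normexp background correction (0.97). A second LAMP1 probe gave 0.89 with gefitinib and was not called. SCARB2, the receptor that sorts glucocerebrosidase to the lysosome, differed by 0.84, 0.59 and 0.51 and was not called.

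The cathepsins, proteases of the lysosomal lumen, split by label. CTSB (chr8:11739286-11739345) had a log2 signal of 2.76 and 2.52 at 0 h, 2.43 and 2.43 with DMSO, 2.51 and 2.53 with luteolin, 3.84 and 3.85 with gefitinib and 3.03 and 3.72 with both drugs. The arrays labelled luteolin were within the range of the controls, and those with gefitinib, alone or combined, were above it. CTSB rose by 1.41 ± 0.22 with gefitinib (adjusted p = 0.00187) and was 1.32 ± 0.22 higher there than with luteolin (adjusted p = 0.00151). Under quantile normalization these differences were 0.93 and 0.84 and were not called.
CTSL1, the gene of cathepsin L (chr9:89535146-89535205), had a log2 signal of 1.97 and 2.35 at 0 h, 2.06 and 2.22 with DMSO, 3.22 and 3.58 with luteolin, 2.43 and 2.44 with gefitinib and 1.55 and 2.29 with both drugs. Here the arrays labelled luteolin stood above all others, and those with both drugs lay on either side of several controls. CTSL1 rose by 1.26 ± 0.26 with luteolin (adjusted p = 0.0106) and was 1.48 ± 0.26 lower with both drugs than with luteolin (adjusted p = 0.00382). The rise was 1.18 and 1.34 without the first or the second DMSO array and 1.08 without the second array labelled luteolin, none of them called.
CTSD, an aspartic protease (chr11:1732721-1732780), had a log2 signal of -0.45 and -0.50 at 0 h, -0.40 and -0.39 with DMSO, 0.68 and 0.69 with luteolin, 0.72 and 0.51 with gefitinib and 0.22 and 0.95 with both drugs. It was above the controls on every drug-labelled array, by 1.09 ± 0.23 with luteolin (adjusted p = 0.0116) and 1.01 ± 0.23 with gefitinib (adjusted p = 0.00754), and by 0.98 with both drugs, below the minimum fold. The call with luteolin was lost without either DMSO array (1.08 and 1.09) or the second array of the label (1.08), and that with gefitinib under quantile normalization (0.96), normexp background correction (0.95) and without the first array of the label (0.91). CTSA and CTSZ, the carboxypeptidases, were not called, with changes of 0.01 to 0.61.

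Of the hydrolases of glycans and lipids, NEU1 and ASAH1 rose with luteolin and GLA fell with both drugs. NEU1, the lysosomal sialidase (chr6:31935125-31935184), had a log2 signal of 1.92 and 2.24 at 0 h, 1.86 and 2.10 with DMSO, 3.44 and 3.37 with luteolin, 1.69 and 1.97 with gefitinib and 1.84 and 1.70 with both drugs. The arrays labelled luteolin stood alone and the other labels overlapped or lay just under the controls. NEU1 rose by 1.43 ± 0.18 with luteolin (adjusted p = 0.00162), and it was lower than with luteolin by 1.57 ± 0.18 with gefitinib and by 1.63 ± 0.18 with both drugs. Its promoter held a single CACGTG, as did that of CTSD, which was raised with both single-drug labels.
ASAH1, acid ceramidase (chr8:17961198-17961364), had a log2 signal of -0.21 and -0.23 at 0 h, -0.25 and -0.30 with DMSO, 1.04 and 0.88 with luteolin, 0.88 and 0.48 with gefitinib and 0.39 and 0.87 with both drugs. All drug-labelled arrays exceeded the controls, and the rise of 1.23 ± 0.21 with luteolin was called (adjusted p = 0.00461). A second ASAH1 probe, for another cDNA, gave 1.39 with luteolin, 0.07 with gefitinib and 1.63 with both drugs, beside 0.96 and 0.90 for the first probe with gefitinib and both drugs.
GLA, alpha-galactosidase A (chrX:100539534-100539593), had a log2 signal of 2.59 and 2.75 at 0 h, 2.71 and 2.66 with DMSO, 2.76 and 2.65 with luteolin, 2.76 and 2.89 with gefitinib and 1.49 and 1.43 with both drugs. The 2 arrays with both drugs were far below the other 8, which lay between 2.59 and 2.89. GLA fell by 1.23 ± 0.15 with both drugs (adjusted p = 0.00133) and was also lower there than with luteolin (by 1.25 ± 0.15) and with gefitinib (by 1.37 ± 0.15). The fall was called under every alternative tried but the treatments of the file names, which place it on the arrays of luteolin alone.

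Of the 6 proton pump genes, ATP6V1C1 and ATP6AP1 were called, each with 1 label. ATP6V1C1, a subunit of its cytosolic part (chr8:104150591-104150650), had a log2 signal of 2.14 and 2.38 at 0 h, 2.28 and 2.29 with DMSO, 2.54 and 2.60 with luteolin, 2.95 and 3.01 with gefitinib and 3.41 and 3.98 with both drugs. With this probe the drug labels did not overlap each other or the controls, and the rise with both drugs was 1.41 ± 0.20 (adjusted p = 0.00230). A second ATP6V1C1 probe for the same transcript gave 0.66 with luteolin and 0.20 with gefitinib, the reverse order. With both drugs it gave 1.05 and was called. ATP6AP1, an accessory protein of the pump (chrX:153317846-153317905), had a log2 signal of 3.08 and 3.17 at 0 h, 2.88 and 2.95 with DMSO, 3.69 and 3.63 with luteolin, 4.04 and 3.99 with gefitinib and 3.56 and 3.96 with both drugs. It was above the controls on all drug-labelled arrays and rose by 1.10 ± 0.17 with gefitinib (adjusted p = 0.00174), a change of 0.56 under quantile normalization that was not called. A second ATP6AP1 probe gave 0.89 with gefitinib and was not called. ATP6V0D1, ATP6V1A, ATP6V1B2 and ATP6V1H were not called, with changes of -0.95 to 0.94, the lowest being that of ATP6V1B2 with gefitinib.

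Of the proteins of the lysosomal lumen, PSAP was called. PSAP, the precursor of the saposins that present lipids to hydrolases (chr10:73246977-73247036), had a log2 signal of 2.94 and 3.03 at 0 h, 2.86 and 2.83 with DMSO, 3.74 and 3.70 with luteolin, 4.30 and 4.03 with gefitinib and 3.65 and 4.35 with both drugs. All drug-labelled arrays were above the controls. It rose by 1.32 ± 0.23 with gefitinib (adjusted p = 0.00262) and by 1.16 ± 0.23 with both drugs (adjusted p = 0.00681), and under quantile normalization by 0.78 and 0.90, neither of them called. The call with both drugs was also lost without the second array of that label (0.81). GRN, the progranulin gene, and NPC2, a cholesterol carrier, differed from DMSO by 0.28 to 0.99 and were not called.

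**Figure D4:**
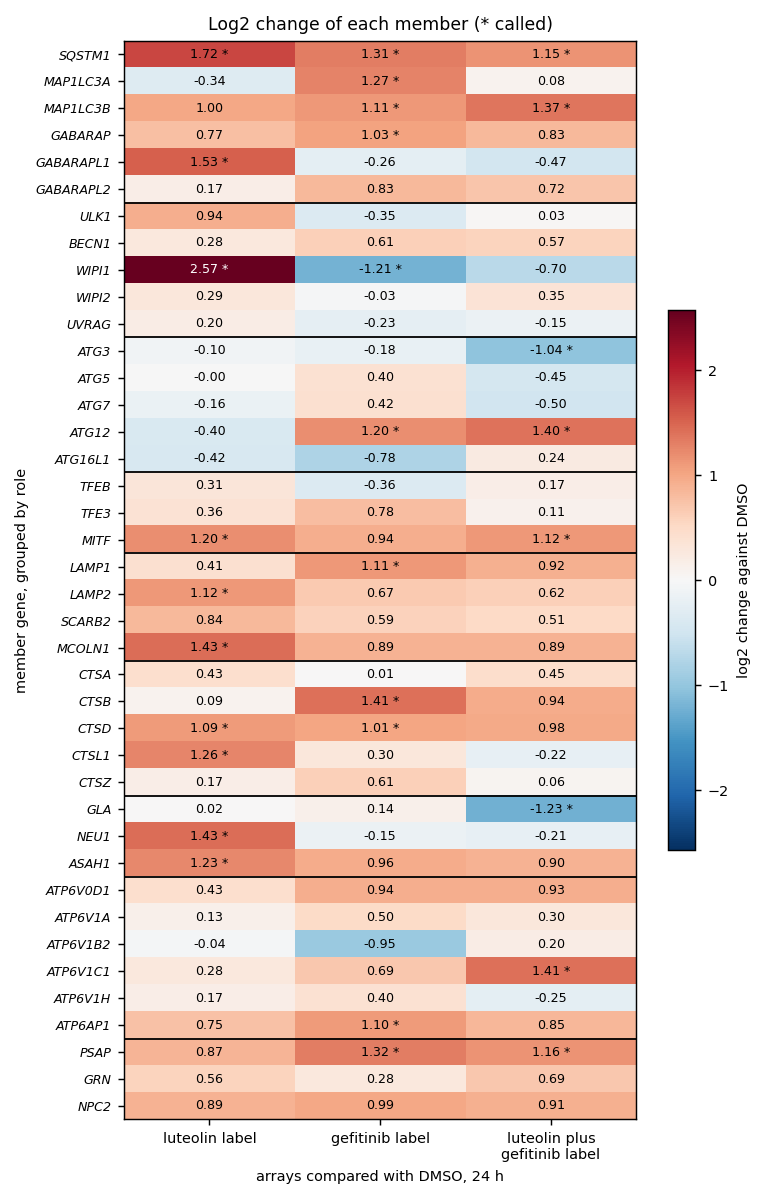
Log2 change of each of the 40 genes against DMSO in the 3 drug-labelled groups, as color and number, with the genes grouped by role between black lines and an asterisk where the change was called. WIPI1 ranged from 2.57 with luteolin to -1.21 with gefitinib, and most other values were positive.

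None of these genes passed the threshold between DMSO at 24 h and untreated cells at 0 h, a comparison in which solvent and time in culture cannot be told apart. There, 0 of the 40 genes rose or fell by limma and 0.0239% and 0.00955% of all genes did, and 3 genes were higher and 1 was lower at an unadjusted p under 0.05. Against 0 h, 13 genes rose and 0 fell with luteolin (8.01% and 7.88% of all genes), 10 rose and 0 fell with gefitinib (15.1% and 14.4%), and 7 rose and 2 fell with both drugs (11.5% and 8.19%). After quantile normalization 3 were called with gefitinib and 5 with both drugs. These comparisons share their drug-labelled arrays with those against DMSO and are not independent of them.

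The drug labels were also compared with each other. Between gefitinib and luteolin, MAP1LC3A, ATG12 and CTSB were higher with gefitinib and GABARAPL1, ULK1, WIPI1 and NEU1 were lower, 3 and 4 of 40 genes beside 19.3% and 17.7% of all genes. Under quantile normalization 2 were higher and 9 lower, and the median difference of the 40 genes was -0.30 in place of 0.01. WIPI1 differed by -3.78 ± 0.25, or 13.7-fold (adjusted p = 4.42e-05). Between both drugs and luteolin, ATG12 and ATP6V1C1 were higher and GABARAPL1, WIPI1, CTSL1, GLA and NEU1 were lower, 2 and 5 genes beside 11.3% and 9.43% of all genes. Between both drugs and gefitinib, ATG16L1 and ATP6V1B2 were higher and MAP1LC3A and GLA were lower, 2 and 2 genes beside 17.1% and 9.64%. ATG16L1, which places LC3 conjugation on the membrane, was at 1.50 and 1.21 with gefitinib and 2.25 and 2.51 with both drugs. ATP6V1B2, a subunit of the pump, was at -0.33 and -0.38 with gefitinib and 0.79 and 0.81 with both drugs, the latter close to the controls (0.42 to 0.75). Some genes rose, by their brightest probe, with luteolin and with no other label. Of these, WIPI1, GABARAPL1 and NEU1 differed from both other drug labels, and CTSL1 differed from both drugs and not from gefitinib. ASAH1, LAMP2 and MCOLN1 differed from neither by the threshold used.

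For the interaction of the drugs, the change against DMSO with both labels together was set against what the single changes added up to. It was called at an adjusted p under 0.05 for 19 of 40 genes, 17 with a lower value than this sum and 2 with a higher one, beside 15.9% and 17.8% of all genes. The median interaction of the 40 genes was -0.79 on the log2 scale and that of all genes -0.17, and under quantile normalization they were -0.67 and -0.11. The count was 12 without the first DMSO array. By the brightest probe of each gene, 3 of 4 genes in the lysosomal membrane group and 3 of 3 tested glycan and lipid hydrolases were below the sum. WIPI1 (-2.06 ± 0.35), SQSTM1 (-1.88 ± 0.26), CTSL1 (-1.78 ± 0.37) and GABARAPL1 (-1.73 ± 0.31) were farthest below it. SQSTM1 stayed above DMSO with both drugs although far under the sum of its single changes, whereas WIPI1, CTSL1 and GABARAPL1 with both drugs did not pass the test against DMSO. ATG16L1 (1.44 ± 0.25) and ATP6V1B2 (1.19 ± 0.26) were above the sum.

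**Figure D5:**
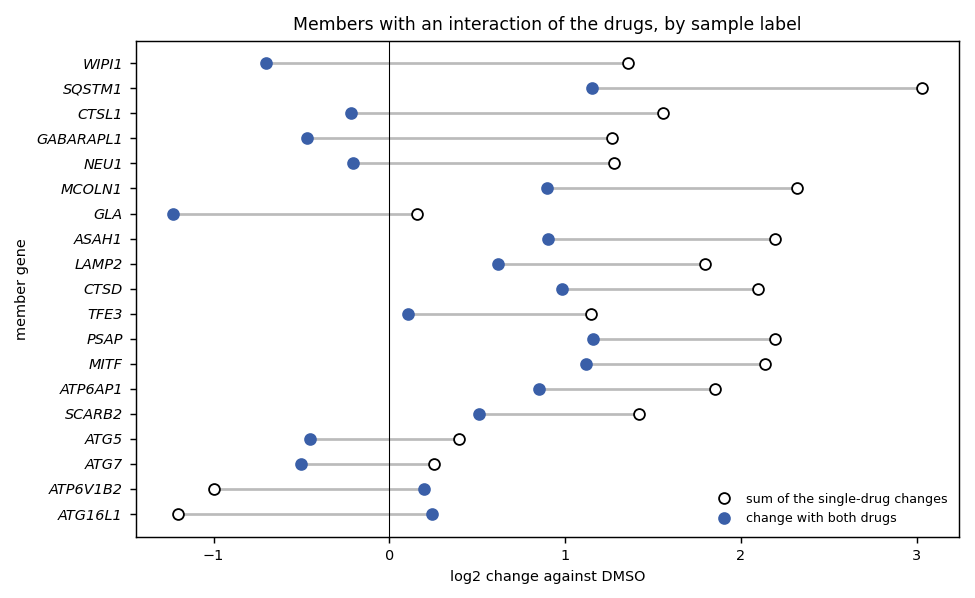
Log2 change against DMSO of the 19 genes with a called interaction, as the sum of the changes with the single-drug labels (open circles) and the change with both drugs (filled circles), joined by a grey line. In 17 genes the change with both drugs was below the sum, and in ATG16L1 and ATP6V1B2 it was above it.

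Outside the list, 168 further genes of the same pathway were grouped as autophagy machinery, selective receptors, lysosomal enzymes, lysosomal membrane and sorting, proton pump and lysosomal nutrient sensing, and 147 were tested. With luteolin 23 rose and 1 fell, with gefitinib 14 rose and 15 fell, and with both drugs 16 rose and 7 fell, with medians of 0.38, 0.42 and 0.29. Beside them stand the shares of all genes given above, 7.04% raised and 6.13% lowered with luteolin, 16.6% and 14.1% with gefitinib and 12.1% and 7.45% with both drugs. DMSO against 0 h gave 0 calls in these genes by limma. With gefitinib, 5 of 26 genes of the autophagy machinery and 5 of 34 of the membrane and sorting genes fell, beside the 14.1% of all genes that fell there.
With luteolin, the largest rises within their lists were those of DDIT4, an inhibitor of mTORC1 (2.23 ± 0.32, adjusted p = 0.00242), CTNS, the lysosomal cystine exporter (2.15 ± 0.20, adjusted p = 0.00059), CTSK, a cathepsin (1.76 ± 0.25, adjusted p = 0.00217), OPTN, a cargo receptor (1.50 ± 0.22, adjusted p = 0.00243), ATP6V1G1 of the proton pump (1.01 ± 0.26, adjusted p = 0.0235) and GABARAPL3, given above. The gene that fell was CTSC, another cathepsin, by 1.44 ± 0.23 (adjusted p = 0.00364).
With gefitinib, PPT2, a lysosomal thioesterase, fell by 3.42 ± 0.35 (adjusted p = 0.0003), RPTOR, the mTORC1 scaffold, by 2.32 ± 0.34 (adjusted p = 0.00147), SORT1, a sorting receptor, by 1.84 ± 0.25 (adjusted p = 0.00106), PIK3R4, a subunit of the autophagic lipid kinase, by 1.55 ± 0.16 (adjusted p = 0.000294) and WDFY3, an adaptor for aggregates, by 1.42 ± 0.18 (adjusted p = 0.000693). In the other direction, DDIT4 rose by 1.44 ± 0.32, ATP6V1G1 by 1.43 ± 0.26, CTSF by 1.28 ± 0.26, CD63 by 1.17 ± 0.24 and WDR45B by 1.04 ± 0.16.
With both drugs, DDIT4 (2.06 ± 0.32), CTSK (1.94 ± 0.25), CLN8 (1.69 ± 0.26), BNIP3, a mitophagy receptor (1.43 ± 0.24), ATP6V1E1 (1.42 ± 0.26) and ZFYVE1 (1.33 ± 0.27) had the largest rises of their lists. CTSC fell by 1.72 ± 0.23, RPTOR by 1.72 ± 0.34, GNPTAB, which makes the mannose 6-phosphate tag of lysosomal enzymes, by 1.57 ± 0.18, ULK2 by 1.54 ± 0.22 and WDFY3 by 1.38 ± 0.18. Changes of these further genes were not recomputed under the other settings.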

How the data were processed

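Gene expression of PC-3 cells was analysed from the scanner output of Agilent single-color arrays. The authors deposited the processed intensity per spot on a linear scale (Feature Extraction 10.7.3.1 per the file headers), background-subtracted within the array and not normalized across arrays. The deposited series table repeated these intensities (45015 of 45015 spots on each array, relative tolerance 1e-04) and 0 sample columns were left unused. Columns of authors' comparisons were not used.

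Spots were read in R 4.3.3 (with version 1.17.8 of data.table) and tested with limma 3.58.1. Control and outlier spots were left out, the log2 intensity was taken relative to the array's 75th percentile of non-control spots, and spots of a probe were averaged. A probe was well above background where the scanner software marked 50% or more of its spots, and was kept if this held on both arrays of at least 1 of the 5 groups (28776 of 41000 probes). A limma model of the 5 groups was fitted to all 10 arrays (5 residual and 3.36 prior degrees of freedom), with Benjamini-Hochberg adjustment over all probes kept. A gene was called at adjusted p under 0.05 with at least a 2-fold difference, or, in the interaction, with no minimum difference. Genes were represented by their brightest probe, by the gene names and hg18 coordinates of the array files, and exon or intron was not annotated. The method was tested on simulated data.

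The members and lists were chosen with earlier results of these data known. Values on every array are given for members called against DMSO, and of the 6 wider lists the largest called rise and fall against DMSO. Promoters came from RefSeq (GRCh38.p14). The labels call the 2 arrays of a group biological replicates, and with 2 per group the precision is limited. Slides were tested as a block. Alternatives were normexp (offset 50), quantile normalization, other probe filters, the table of values, replicate and slide blocks, only the groups compared, no minimum fold, the treatments in the names of the files, the median over probes, the methods' t-test and leaving out each array.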

Additional observations from a re-analysis of the deposited data

Results flagged for a closer look

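In 19 genes of the list the change with both drugs differed from the sum of the changes with either drug, by the interaction term of the limma model with adjusted p under 0.05, which is a test of the difference itself. The interaction was below 0, on the log2 scale, for the adaptor SQSTM1 (-1.88), for GABARAPL1 (-1.73), for the conjugation genes ATG5 (-0.84) and ATG7 (-0.76), for WIPI1 (-2.06) and for the transcription factors TFE3 (-1.04) and MITF (-1.02). Among lysosomal genes it was below 0 for LAMP2 (-1.18), SCARB2 (-0.91), MCOLN1 (-1.42), CTSD (-1.12), CTSL1 (-1.78), GLA (-1.39), NEU1 (-1.49), ASAH1 (-1.29), ATP6AP1 (-0.9992) and PSAP (-1.04). These values are for the brightest probes. The second ASAH1 probe changed by 1.39 with luteolin, 0.07 with gefitinib and 1.63 with both drugs, and its interaction was not examined. The interaction was above 0 for ATG16L1 (1.44) and ATP6V1B2 (1.19). The adjusted p lay nearest to the threshold for MITF (0.0462) and ATG7 (0.0455).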

How the results depend on the processing

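The 66 calls of single genes in the comparisons with DMSO, between labels and for the interaction kept their direction under every alternative tried but the treatments of the file names, which reversed 31. Of the 66, 53 stayed called under quantile normalization, 59 under normexp and 55 with the median over probes, and leaving out an array also lost calls.

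By the file names, the luteolin changes became GABARAPL1 -0.47, WIPI1 -0.70, CTSL1 -0.22 and NEU1 -0.21, the gefitinib changes MAP1LC3A -0.34, ATG12 -0.40 and WIPI1 2.57, and that of GLA with both drugs 0.14. Gefitinib minus luteolin became -0.42 for MAP1LC3A, 1.99 for GABARAPL1, 0.91 for ULK1, -1.79 for ATG12, 3.27 for WIPI1, -0.85 for CTSB and 1.63 for NEU1. Both drugs minus luteolin became 0.21 for GABARAPL1, -0.20 for ATG12, 0.52 for CTSL1, 1.37 for GLA, 0.0595 for NEU1 and -0.71 for ATP6V1C1, and both drugs minus gefitinib 1.60 for MAP1LC3A, -0.37 for ATG16L1, 0.12 for GLA and -0.91 for ATP6V1B2. The interaction became 0.85 for ATG5, 1.08 for ATG7, -0.61 for ATG16L1, 0.31 for TFE3, 1.35 for GLA and -1.11 for ATP6V1B2. These are the same arrays under other names, with 4 genes called for both drugs against luteolin and 7 against gefitinib.

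Without a minimum fold, 16 genes were called against DMSO with luteolin (16 rose and 0 fell, beside 13.8% and 11.7% of all genes). The number was 26 with gefitinib (23 and 3, beside 34.1% and 21.7%) and 22 with both drugs (19 and 3, beside 25.6% and 15.7%). Against 0 h it was 25 with gefitinib (22 and 3, beside 32.7% and 22%) and 24 with both drugs (21 and 3, beside 24.5% and 16%). Gefitinib against luteolin gave 16 (8 and 8, beside 34.4% and 26.4%). Both drugs gave 15 against luteolin (5 and 10, beside 24% and 17.6%) and 11 against gefitinib (3 and 8, beside 24.1% and 22.6%). Under quantile normalization, with the minimum fold, the numbers called were 2 for gefitinib against DMSO and 11 for gefitinib against luteolin. Against 0 h they were 3 for gefitinib and 5 for both drugs. The methods' t-test without adjustment gave 4 for DMSO and 4 for both drugs against 0 h, and after Benjamini-Hochberg 0 for luteolin, gefitinib and both drugs. Leaving out an array gave 4 to 17 for both drugs against DMSO, 3 to 16 for both drugs against 0 h (16 and 3 without its first and second array) and 12 to 24 for the interaction. The lone array of a group was then assumed to vary like the others.

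In the check for pairing by replicate number, correlations ran from -0.0976 to 0.293 over 10 pairs, and 6 were over 0.1. Whether arrays with the same replicate number were handled together was not tested. With replicate number as a block, 10, 11 and 8 genes were called against DMSO and 21 for the interaction, with no call lost. With the slide as a block 10, 16 and 8 were called, and 3 of the 66 calls were lost (ATG16L1 for both drugs against gefitinib, at 0.96, and the interactions of ATG5 and ATG7). Signal over background limited HEXA, and 2 arrays per group limit all values. The causes of these shifts were not tested.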

Other observations

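Probes other than the brightest one gave different values for some genes. Another MITF probe, for another transcript of the gene, was well above background on 2 of 10 arrays, both of them DMSO arrays, whereas the 3 other MITF probes were higher with each drug label than with DMSO. A second ATG16L1 probe, for another cDNA, fell with luteolin (-1.09, adjusted p = 0.015) and with gefitinib (-1.74, adjusted p = 0.00122) and differed by -0.16 with both drugs. Of the 3 WIPI2 probes, all annotated to the same transcript, the third rose with both drugs (1.51, adjusted p = 0.00338), while the others differed by 0.35 and -0.33. These probes were looked at after the values of the brightest probes were known.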
